A study of Mus musculus with 36 samples.

Results

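Nampt, Nmnat1, Nmnat3, Nadsyn1, Naprt, Nmrk1, Nnmt, Sirt1, Sirt3 and Sirt5 are 10 genes of NAD synthesis, nicotinamide removal and NAD-dependent deacylation, taken by symbol from the 54532 genes of a liver RNA sequencing count table. All 10 were found, and all 10 passed the filter of at least 100 counts over all libraries, which left 17994 genes to test. The livers came from 36 adult male mice, 18 THRB WT and 18 THRB KO, in 12 groups of 3 defined by genotype and zeitgeber time (ZT, counted in hours from lights on): ZT2, ZT6 and ZT10 in the light, ZT14, ZT18 and ZT22 in the dark. THRB WT stands for heterozygous controls (THRB+/-), which carry 1 copy of the altered thyroid hormone receptor beta allele, and THRB KO for homozygotes (THRB-/-), in which both receptor isoforms lack a functional DNA binding part in all tissues. Both genotypes belonged to the B6.129S1-Thrbtm1Df/J line on a C57Bl/6NCrl background, were 2 to 3 months old, and lived on normal chow under a cycle of 12 h light and 12 h dark. None of the 10 transcripts passed the test for a difference between the genotypes, and 9 of them varied with the time of day.

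NAD carries electrons in metabolism and is used up by sirtuins, PARP enzymes and CD38, which release nicotinamide. Nampt makes nicotinamide mononucleotide (NMN) from nicotinamide and is regarded as the rate-limiting step of salvage, Nmrk1 makes NMN from nicotinamide riboside, and the Nmnat enzymes turn NMN into NAD. Naprt and Nadsyn1 act on nicotinic acid and its adenine dinucleotide, and the liver can also build NAD from tryptophan. Nnmt methylates nicotinamide and so removes it from salvage. Sirt1 is a nuclear deacetylase, Sirt3 a mitochondrial deacetylase and Sirt5 a mitochondrial desuccinylase, and Nampt is a textbook target of the clock factors CLOCK and BMAL1.

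Library totals ranged from 29063273 to 42530551 counts, and levels are given as CPM, the conventional scaling of counts by library total, here multiplied by edgeR's TMM factors of 0.941 to 1.06. The hepatocyte markers Alb, Apoa1, Ttr, Cps1, Cyp2e1 and Serpina1c summed to between 65390.4 and 96656.9 CPM in each library, with Alb alone at a mean of 57780 CPM. For genotype, 0 of these 6 passed edgeR or DESeq2, and the fitted level was higher in THRB KO for 2 and lower for 4. Ttr (log2 fold change -0.144) and Apoa1 (-0.122) were at an unadjusted p under 0.05 from edgeR, beside 12.1% of all genes. Thrb itself was at 28.9 ± 3.69 CPM in THRB WT and 31.5 ± 2.70 CPM in THRB KO livers (SD, n = 18), and a count over the whole gene does not separate the altered part of the transcript, so it checks nothing about the labels. The 5 erythroid markers (Hba-a1, Hba-a2, Hbb-bs, Hbb-bt and Alas2) had a lower fitted level in THRB KO livers and 0 passed edgeR's test (1 at an unadjusted p under 0.05, 0 by DESeq2), with summed levels of 219 to 983 CPM (median 330.2) in THRB WT and 145 to 646 CPM (median 283) in THRB KO. The 6 Kupffer cell and macrophage markers also had a lower fitted level in THRB KO, 0 passed either test or an unadjusted p under 0.05, and their summed levels were 150.4 to 474 CPM in THRB WT and 159 to 306 CPM in THRB KO. In whole liver, fewer cells of a type and less RNA per cell cannot be told apart. Nothing in the labels says that mice of a group came from separate litters or cages.

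Per kilobase of gene length, Nnmt and Naprt were the most abundant of the 10 transcripts, at means of 54.5 and 52.6 CPM per kb over the 36 mice. Nampt followed at 19.5 CPM per kb, Nmrk1 at 11.4, Sirt3 at 11.1, Nadsyn1 at 8.11 and Nmnat1 at 5.39 CPM per kb. Sirt5, Sirt1 and Nmnat3 were the least abundant, at 2.23, 2.09 and 1.35 CPM per kb. Single mice spanned 15.1 to 129 CPM per kb for Nnmt but 44.3 to 63.7 for Naprt, so these neighbours in the order overlapped, as did Nmrk1 with Sirt3 and Sirt5 with Sirt1. Nmnat3 rested on the fewest reads, 98 to 359 counts per library, against 3382 to 5279 for Naprt.

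**Figure D1:**
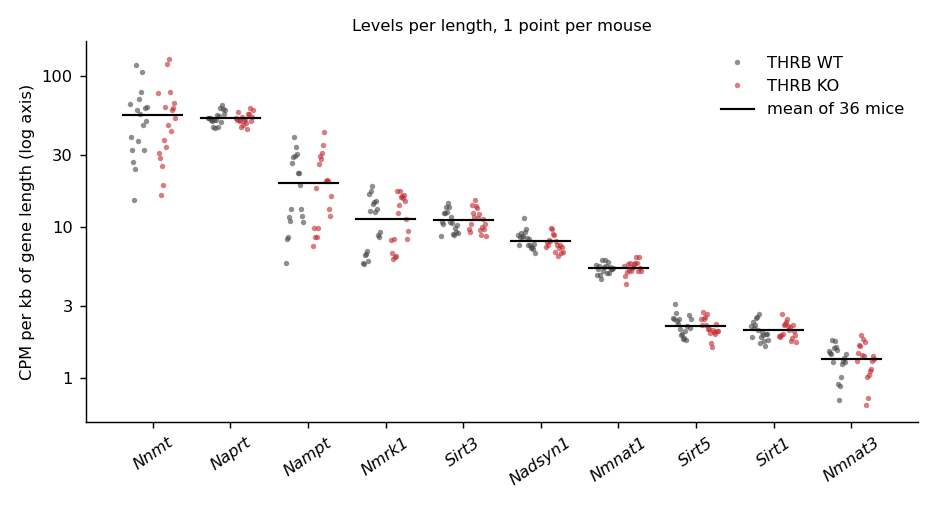
Level of each transcript per kilobase of gene length (CPM per kb, log axis) in each of the 36 mice, with black bars for the mean over all mice and genes ordered by that mean. Nnmt, Nampt and Nmrk1 were spread widely, whereas the mice lay close together for Naprt and Nmnat1.

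The first comparison asked whether the loss of THRB changed the level of these transcripts once the time of day was taken into account. No difference was called: 0 of the 10 passed the quasi-likelihood test of edgeR, with p adjusted over all genes by Benjamini-Hochberg, where 171 of 17994 genes (0.95%) passed. DESeq2 also called 0 of the 10. At an unadjusted p under 0.05 there was 1 member, Nadsyn1, beside 12.1% of all genes. The fitted level was higher in THRB KO for 5 members and lower for 5, with a median log2 fold change of 0.0063 for the members and -0.0011 for all tested genes.

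Nadsyn1, which makes NAD from nicotinic acid adenine dinucleotide, lay at 27.6 ± 3.77 CPM in THRB WT and 26.0 ± 3.23 CPM in THRB KO livers (SD, n = 18). Its log2 fold change was -0.09 (standard error 0.034, 95% interval -0.16 to -0.02), with a lower THRB KO mean at 6 of 6 sampling times and overlapping ranges at each (unadjusted p = 0.0151, adjusted p = 0.267 from edgeR). With the mice lettered a in the labels left out the value was -0.024 (adjusted p = 0.945 from edgeR). In that fit 0 members had an unadjusted p under 0.05, beside 1315 of 17994 genes, against 2169 genes in the main fit. Nmrk1 had the largest positive value of the 10, 0.10 (standard error 0.054, adjusted p = 0.454 from edgeR), with a higher THRB KO mean at 5 of 6 times. This value was 0.030 with letter a left out, below those of Nnmt (0.12), Nmnat3 (0.044) and Nmnat1 (0.037) in the same fit, and 0.15 with letter c left out. Nampt had a log2 fold change of 0.06 with a 95% interval of -0.09 to 0.22. The sirtuins had log2 fold changes of 0.02 for Sirt1, 0.03 for Sirt3 and -0.05 for Sirt5. The 95% intervals of 9 of the 10 genes lay between 0.896-fold and 1.16-fold, and that of Nnmt, whose mice varied most, between 0.762-fold and 1.24-fold.

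**Figure D2:**
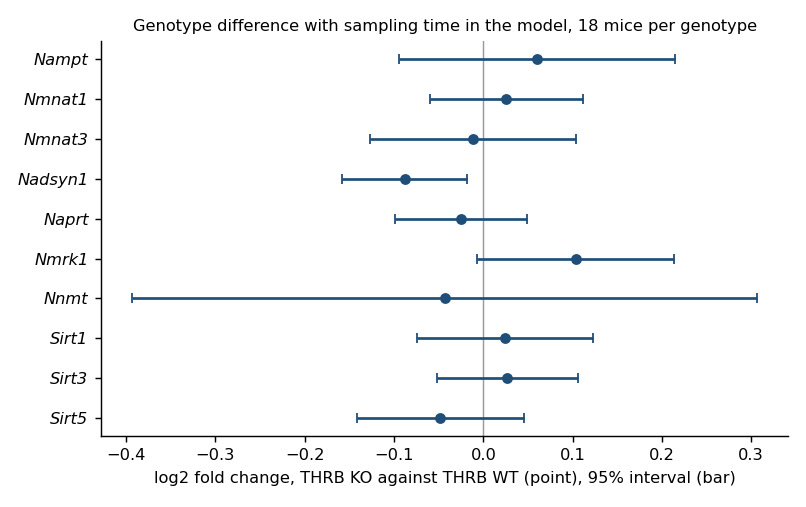
Log2 fold change of each transcript in THRB KO against THRB WT livers with sampling time in the model (points) and its 95% interval (bars), 18 mice per genotype. The interval of Nadsyn1, from -0.16 to -0.02, lies below 0, but its adjusted p of 0.267 does not pass, and the other 9 intervals include 0.

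Within single sampling times the ranges of the 3 THRB WT and the 3 THRB KO mice overlapped in 58 of the 60 pairs of gene and time. The other 2 pairs were Nmrk1 at ZT18, with 42.1 to 49.4 CPM in THRB WT and 49.6 to 54.2 CPM in THRB KO, and Sirt1 at ZT14, with 9.07 to 10.9 CPM against 11.1 to 11.9 CPM. Over all tested genes, 9.96% of such pairs did not overlap. A comparison of 3 mice with 3 cannot give a two-sided exact permutation p under 0.1.

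The second comparison asked which of the transcripts followed the time of day. Over both genotypes, 9 of the 10 transcripts passed the test of the 6 sampling times, beside 45.0% of all genes. A 24-h rhythm, tested by a sine and a cosine term within each genotype, was called for 8 of 10 members in THRB WT (33.0% of all genes) and for 8 of 10 in THRB KO (28.9% of all genes). Nampt, Nmrk1, Nmnat3, Nadsyn1, Sirt1, Sirt3 and Sirt5 were called in both. Nmnat1 was called in neither, Naprt in THRB WT and Nnmt in THRB KO, and for these the difference between genotypes is what the interaction test addresses.

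**Figure D3:**
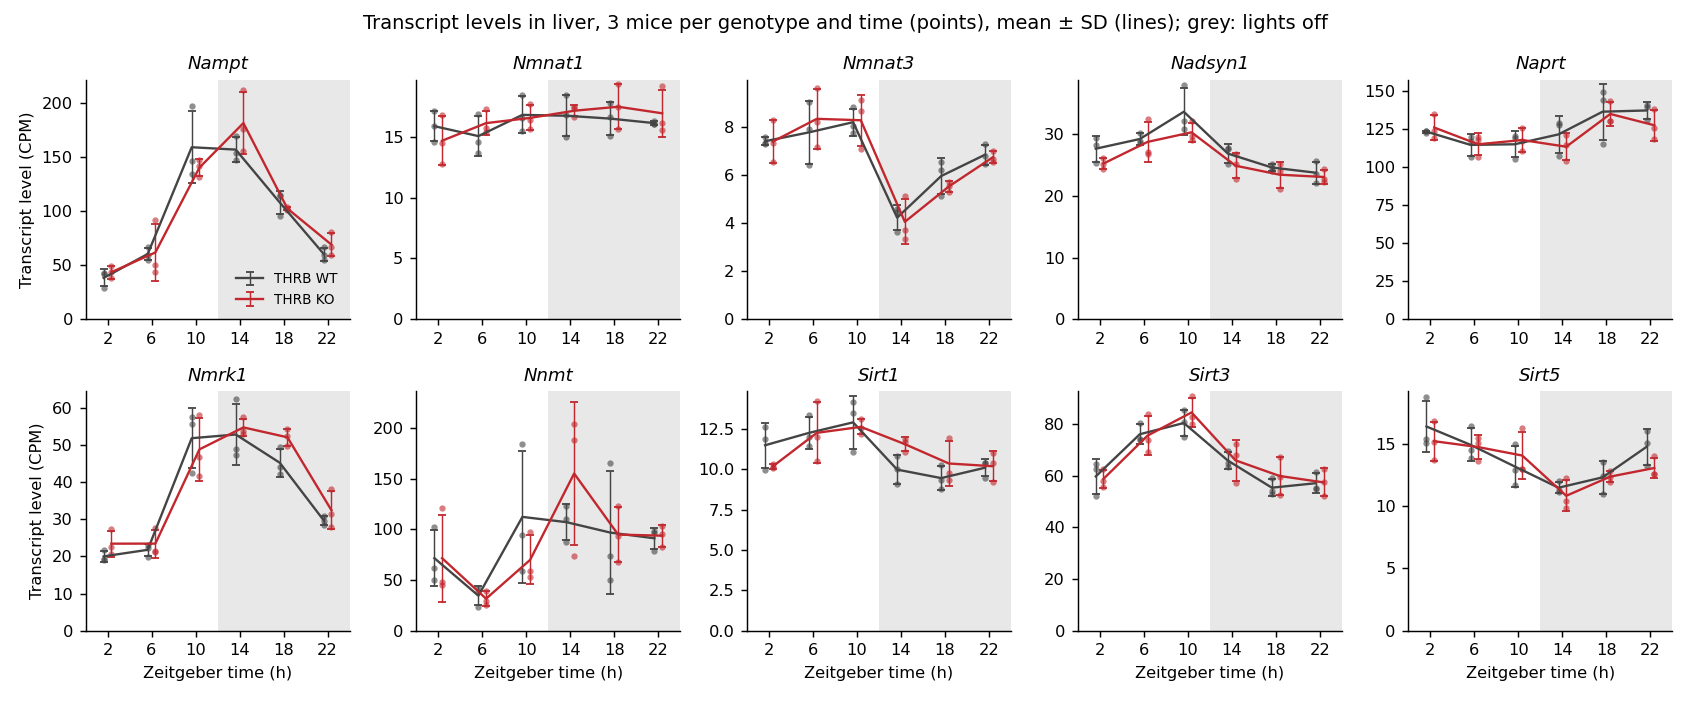
Transcript level (CPM) against zeitgeber time for the 10 genes in THRB WT (grey) and THRB KO (red) livers. Points are single mice, lines join the means, bars are SD (n = 3) and the shaded area is the dark phase. Nampt and Nmrk1 rose to ZT10 and ZT14, Nmnat3 fell at ZT14, Nmnat1 did not pass the test of time, and the ranges of the 2 genotypes overlap in 58 of the 60 pairs of gene and time.

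Nampt (chromosome 12 of GRCm38, 32819545 to 32853349, plus strand) showed the widest daily range of the members called in both genotypes. In THRB WT livers it was at 29.1, 42.3 and 43.2 CPM at ZT2, 59.0, 55.2 and 67.0 at ZT6, 134, 146 and 197 at ZT10, 148, 170.2 and 154 at ZT14, 115, 114 and 95.7 at ZT18, and 66.8, 59.6 and 54.8 at ZT22. In THRB KO livers it was at 37.8, 49.5 and 43.4 CPM at ZT2, 91.7, 43.7 and 50.1 at ZT6, 132, 148 and 142 at ZT10, 156, 177 and 213 at ZT14, 102, 104 and 102 at ZT18, and 66.9, 59.8 and 80.5 at ZT22. All mice at ZT10 and ZT14, around the onset of darkness, thus lay above all mice at the other times, and ZT2 was low in both genotypes.

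The mean of the highest time exceeded that of the lowest 4.17-fold in THRB WT (ZT10 over ZT2) and 4.17-fold in THRB KO (ZT14 over ZT2). In THRB WT the ZT10 and ZT14 mice overlapped, and so did those of ZT6 and ZT22, while in THRB KO the ZT14 mice lay above those of ZT10. The effect of time had an adjusted p of 1.49e-14 by edgeR, and the rhythm 5.21e-08 in THRB WT and 1.59e-06 in THRB KO. A fitted 24-h cosine peaked at ZT13.4 (standard error 0.325 h) in THRB WT and ZT13.7 (standard error 0.348 h) in THRB KO.

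Nmrk1, nicotinamide riboside kinase 1 (chromosome 19, 18631950 to 18652194, plus strand), ran closely in parallel. Its THRB WT mice had 19.4, 18.9 and 21.7 CPM at ZT2, 22.3, 23.1 and 20.0 at ZT6, 55.5, 42.5 and 57.5 at ZT10, 62.2, 47.4 and 48.9 at ZT14, 42.1, 49.4 and 44.2 at ZT18, and 29.7, 28.6 and 30.8 at ZT22. Its THRB KO mice had 27.3, 22.5 and 20.5 CPM at ZT2, 27.8, 21.1 and 21.5 at ZT6, 58.1, 41.6 and 46.7 at ZT10, 57.4, 52.9 and 53.9 at ZT14, 52.4, 54.2 and 49.6 at ZT18, and 38.1, 27.9 and 31.3 at ZT22. The step between ZT6 and ZT10 separated all mice in both genotypes, and ZT10, ZT14 and ZT18 formed a plateau with overlapping neighbours in the order.

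The highest mean exceeded the lowest 2.64-fold in THRB WT and 2.33-fold in THRB KO, in both cases ZT14 over ZT2 (time effect, adjusted p = 6.83e-15 from edgeR). The fitted peaks were at ZT14.4 in THRB WT and ZT14.9 in THRB KO. Over the means of the 12 groups of genotype and time, Nmrk1 and Nampt correlated at r = 0.95, a description over groups that share the same libraries.

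The Nmnat enzymes differed from each other. Nmnat1, the nuclear enzyme (chromosome 4, 149467572 to 149485202, minus strand), stayed between 12.8 and 19.4 CPM in all mice, and all neighbours in its order of sampling times overlapped in both genotypes (time effect, adjusted p = 0.291 from edgeR). Its group means ran from 15.1 to 16.8 CPM in THRB WT and from 14.7 to 17.5 CPM in THRB KO.

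Nmnat3, the mitochondrial enzyme (chromosome 9, 98287435 to 98420438, plus strand), dropped early in the night. At ZT14 it was at 4.58, 3.63 and 4.48 CPM in THRB WT and at 3.34, 5.12 and 3.69 CPM in THRB KO. At ZT10 the values were 8.84, 8.04 and 7.73 CPM in THRB WT and 9.12, 7.08 and 8.66 CPM in THRB KO. The 6 mice at ZT14 lay below 29 of the 30 others, and those of ZT18 were the next lowest in both genotypes. The highest mean exceeded the lowest 1.94-fold in THRB WT livers and 2.06-fold in THRB KO livers (time effect, adjusted p = 2.3e-09 from edgeR). The rhythm calls were lost when the mice of some letters were left out. Fewer mice then enter the fit, and beyond that the cause was not tested. The adjusted p in THRB WT was 0.0182, and 0.186 or 0.0829 when letter a or c was left out. In THRB KO it was 0.00629, and 0.0846 or 0.052 when letter b or c was left out. With the sampling times as a factor, the THRB WT call held at an adjusted p of 0.00112 from edgeR. The THRB KO call also held, at 0.00129.

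Of the enzymes of the nicotinic acid route, Nadsyn1 (chromosome 7, 143795584 to 143822849, minus strand) had its highest mean at ZT10, 33.7 ± 3.82 CPM in THRB WT and 30.3 ± 1.57 CPM in THRB KO (SD, n = 3). Its lowest mean was at ZT22, 23.8 ± 1.79 and 23.1 ± 1.13 CPM (SD, n = 3), which makes a ratio of 1.42 and 1.31 (time effect, adjusted p = 4.69e-07 from edgeR). The ZT10 mice of THRB WT, from 30.9 to 38.0 CPM, lay above those of every other time in that genotype.

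Naprt (chromosome 15, 75890956 to 75894481, minus strand) varied less and had its highest means at ZT18 and ZT22 in both genotypes. Its highest mean was 137 ± 5.34 CPM at ZT22 in THRB WT and 135 ± 7.66 CPM at ZT18 in THRB KO, and its lowest 114 ± 7.00 CPM at ZT6 and 113 ± 8.71 CPM at ZT14 (SD, n = 3). All neighbours in the order overlapped. The time effect had an adjusted p of 0.00344 by edgeR and of 0.271 when letter c was left out. The rhythm in THRB WT had an adjusted p of 0.0163, of 0.108 without letter a, of 0.207 without letter c and of 0.166 with the sampling times as a factor, and in THRB KO it was not called (adjusted p = 0.0939). Naprt shares 277 bases with Eef1d on the same strand, a gene with 116491 counts beside the 150921 of Naprt, and how shared reads were assigned is not given in the sources used here. Fitted peaks of Eef1d lay at ZT10.7 in THRB WT and ZT13.1 in THRB KO, and those of Naprt at ZT20.3 and ZT21.1. The rhythm of Eef1d was not called in THRB WT (adjusted p = 0.131 from edgeR).

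Nnmt, nicotinamide N-methyltransferase (chromosome 9, 48591877 to 48605153, minus strand), had the largest spread between mice of a group, with a pooled SD of 0.57 on the log2 scale against 0.10 to 0.25 for the other 9. The THRB WT mice had 103, 61.6 and 50.5 CPM at ZT2, 42.3, 23.8 and 37.9 at ZT6, 184, 94.1 and 58.7 at ZT10, 111, 87.9 and 123 at ZT14, 166, 74.1 and 50.6 at ZT18, and 96.2, 79.2 and 98.4 at ZT22. The THRB KO mice had 121, 48.3 and 45.3 CPM at ZT2, 25.7, 39.7 and 29.7 at ZT6, 59.2, 97.7 and 52.9 at ZT10, 188, 73.8 and 204 at ZT14, 123, 68.1 and 93.7 at ZT18, and 95.9, 103 and 82.3 at ZT22. In at least 1 genotype, single mice at ZT2, ZT10, ZT14 and ZT18 thus stood far from the others of their group, whereas ZT6 was low throughout.

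All 6 mice at ZT6, from 23.8 to 42.3 CPM, lay below all 30 others (time effect, adjusted p = 0.000105 from edgeR). Above ZT6 the neighbouring times overlapped in both genotypes. The rhythm was called in THRB KO (adjusted p = 0.0151, and 0.214 when letter c was left out) and not in THRB WT (adjusted p = 0.124). Nnmt is also abundant in adipose tissue. Of the 4 adipocyte markers, Adipoq and Plin1 had at most 3 and 2 counts in any library and Lep 0 counts in all, whereas Fabp4 had 143 to 551 counts, at a mean of 8.62 CPM, and was fitted 0.19 higher in THRB KO on the log2 scale (adjusted p = 0.371 from edgeR, under 0.05 unadjusted). Adipoq, Plin1 and Lep were below the count filter and entered the sum of the 4 markers as 0. The sum was thus Fabp4 alone, at 4.75 to 11.7 CPM in THRB WT and 5.35 to 15.2 CPM in THRB KO. The part of adipose tissue in the Nnmt values was not tested.

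Sirt3 (chromosome 7, 140863666 to 140882309, minus strand) was the most abundant of the 3 sirtuins and the one with the clearest daily course. In THRB WT it had 75.2, 85.4 and 80.7 CPM at ZT10 and 54.0, 53.0 and 59.0 CPM at ZT18. In THRB KO it had 90.7, 82.8 and 80.0 CPM at ZT10 and 57.5, 62.8 and 52.0 CPM at ZT22. The ZT6 and ZT10 mice formed the upper part of the order in both genotypes, with overlapping ranges, and the ratio of highest to lowest mean was 1.45 and 1.47 (time effect, adjusted p = 1.89e-08 from edgeR). The gene shares 342 bases with Psmd13 and 707 bases with Ric8a, both on the opposite strand, and the libraries do not mark strand. Psmd13, with 73281 counts, did not pass the time test (adjusted p = 0.866 from edgeR), whereas Ric8a, with 32551 counts, did (adjusted p = 1.15e-06), with fitted peaks at ZT10.5 and ZT10.9. The part of shared reads in the Sirt3 values was not tested. Ric8a, Psmd13 and Eef1d were looked at because they overlap members. On the same strand, Nampt also shares 5033 bases with Gdap10 (676 counts) and Nmnat3 577 bases with Gm28530 (52 counts). On the opposite strand, Nmnat1 shares 6172 bases with Gm13097 (64 counts) and Sirt1 13035 bases with Gm16145 (0 counts). The part of shared reads in these members was not tested either.

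Sirt5 (chromosome 13, 43365496 to 43395203, plus strand) ran opposite to Nampt and Nmrk1, high after lights on and low early in the night. At ZT2 the mice had 15.4, 15.1 and 18.8 CPM in THRB WT and 15.1, 13.7 and 16.8 CPM in THRB KO. At ZT14 they had 12.0, 11.2 and 11.3 CPM in THRB WT and 12.2, 10.4 and 9.87 CPM in THRB KO. The ZT2 and ZT14 mice did not overlap in either genotype, and all neighbours in the order of means did. In THRB KO the ZT10 mice, from 12.97 to 16.23 CPM, lay above the ZT14 mice, whereas in THRB WT the ZT10 and ZT14 mice overlapped. Time had an adjusted p of 3.37e-05 by edgeR. The rhythm in THRB KO (adjusted p = 0.00748) lost its call when letter b (0.0809) or letter c (0.109) was left out. Over the 12 group means, Sirt5 correlated with Nampt at r = -0.85 and with Nmrk1 at r = -0.86.

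Sirt1 (chromosome 10, 63319005 to 63381704, minus strand) moved within a narrow range. The THRB WT mice had 11.9, 9.94 and 12.7 CPM at ZT2, 11.4, 12.0 and 13.3 at ZT6, 13.5, 11.1 and 14.2 at ZT10, 9.07, 10.1 and 10.9 at ZT14, 10.3, 9.35 and 8.76 at ZT18, and 10.4, 10.4 and 9.49 at ZT22. The THRB KO mice had 10.1, 10.1 and 10.4 CPM at ZT2, 14.3, 10.5 and 12.0 at ZT6, 12.2, 12.5 and 13.1 at ZT10, 11.9, 11.1 and 11.7 at ZT14, 9.38, 9.79 and 11.9 at ZT18, and 11.0, 10.4 and 9.22 at ZT22. Both genotypes were highest at ZT10, while ZT14 fell with the low times in THRB WT and with the higher ones in THRB KO.

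The highest mean of Sirt1 exceeded the lowest 1.37-fold in THRB WT and 1.24-fold in THRB KO (time effect, adjusted p = 0.00136 from edgeR), and all neighbours in the order overlapped. Its rhythm was called in THRB WT (adjusted p = 0.0047), except with letter c left out (0.178). In THRB KO (adjusted p = 0.0237) the call was lost without letter a (0.101), without letter b (0.0873), without letter c (0.165) and with the sampling times as a factor (0.154).

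The next comparison asked whether the daily curves differed between the genotypes. The interaction of genotype with the 24-h terms was called by edgeR for 0 of the 10 members and 0.0% of all genes, and DESeq2 called 0 genes as well. At an unadjusted p under 0.05 there were 0 members beside 553 genes, or 3.07% (610 genes by DESeq2), and the smallest member value was that of Sirt1 (adjusted p = 1.0).

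In the fitted cosine curves, the 7 members called rhythmic in both genotypes had amplitudes, in variance-stabilized units on a log2 scale, from 0.20 for Sirt1 to 1.05 for Nampt in THRB WT and from 0.16 to 0.98 in THRB KO. Nmrk1 had amplitudes of 0.74 and 0.69, and Sirt3 of 0.27 in both genotypes. No amplitude differed at an unadjusted p under 0.05 (0 of 7, beside 1.42% of the 3872 genes called in both). The amplitude was lower in THRB KO for 6 of the 7, and for 57.7% of the 3872 genes. The difference for Nampt was -0.07 with a 95% interval of -0.33 to 0.19, and that for Nmrk1 -0.05 with an interval of -0.25 to 0.15.

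Peak times ran from ZT2.49 for Sirt5 through ZT4.2 for Nmnat3, ZT6.74 for Sirt1, ZT8.49 for Nadsyn1 and ZT8.74 for Sirt3 to ZT13.4 for Nampt and ZT14.4 for Nmrk1 in THRB WT. In THRB KO the peaks were at ZT3.9 for Sirt5, ZT4.49 for Nmnat3, ZT8.2 for Nadsyn1, ZT9.31 for Sirt3, ZT9.67 for Sirt1, ZT13.7 for Nampt and ZT14.9 for Nmrk1. These are peaks of the fitted cosine and need not fall on the time of the highest mean. For Nmnat3 that mean was at ZT10 in THRB WT and ZT6 in THRB KO. The fitted peak was later in THRB KO for 6 of the 7, beside 66.6% of the 3872 genes, whose median difference was 0.39 h. For comparison, the clock genes peaked in THRB WT at ZT7.33 (Nr1d1), ZT9.71 (Dbp), ZT15.0 (Per2) and ZT22.0 (Arntl), and in THRB KO at ZT7.73, ZT10.2, ZT15.4 and ZT22.2.

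Sirt1 was the 1 of 7 with a peak difference at an unadjusted p under 0.05, beside 4.55% of the 3872 genes. The fitted peak was 2.93 h later in THRB KO (standard error 1.22 h, 95% interval 0.44 to 5.42 h with 30 residual degrees of freedom), and it did not pass with adjustment over all genes (adjusted p = 0.562). With letter b or c left out the difference was 2.73 h or 2.68 h, and neither had an unadjusted value under 0.05 (adjusted p = 0.719 and adjusted p = 0.806). The next largest difference was that of Sirt5, 1.4 h with an interval of -0.81 to 3.61 h. The difference for Nampt, 0.31 h, had an interval of -0.66 to 1.28 h.

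**Figure D4:**
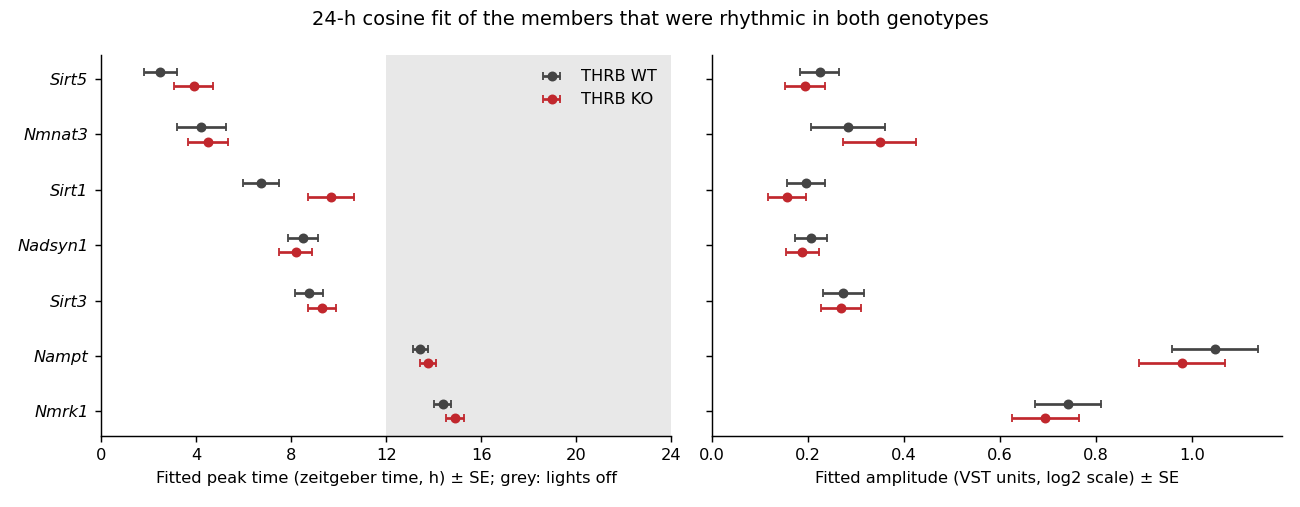
Peak time (left, zeitgeber time in h, dark phase shaded) and amplitude (right, variance-stabilized units on a log2 scale) of a fitted 24-h cosine, with standard errors, for the 7 transcripts called rhythmic in THRB WT (grey) and THRB KO (red). The genotypes lie close together except for the peak of Sirt1, at ZT6.74 and ZT9.67, and Nampt and Nmrk1 stand apart by peak time and amplitude.

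The genes whose courses were most like those of Nampt and the sirtuins were read from the correlation of log2 CPM means over the 12 groups, among 12640 other genes with a mean of at least 1 CPM. For Nampt they were Maco1 (r = 0.99), Dnajb6 (0.99), Osbpl5 (0.99), Cask (0.98) and Vps13a (0.98). For Sirt1 they were Fbxo7, Mir22hg, Zbtb44, Ube2g1 and S100pbp, with r between 0.95 and 0.96. Sirt3 ran with Kansl3, Klhl21, March5, Usf2 and Vwce, all at r = 0.98, and Sirt5 with Gm32872, Fam241b, Nit2, Ubxn1 and Lgals9 at 0.96 to 0.97. The 12 means share their libraries and the common daily course of many liver genes, so such values are a description without a test. Among the members themselves, Sirt1 and Sirt3 correlated at 0.89, Nadsyn1 and Sirt3 at 0.87, and Naprt was opposite to Sirt1 (-0.82) and Sirt3 (-0.81).

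RefSeq promoter windows on GRCm38.p6, from 250 bases before to 50 bases after a start site, were at hand for 8 of the 10 members in 10 entries. They were searched on both strands for 3 motifs without ambiguous letters, CACGTG, the core of the E-box bound by CLOCK and BMAL1, for AGGTCA, the core hexamer bound by many nuclear receptors, and for GGGCGG, the GC box. CACGTG was found for 1 member, Sirt1, with 2 matches that begin at -115 and -43 from the start site, and it occurs in 7.15% of all 32851 windows. AGGTCA was found for 3 members, Nampt, Nmnat3 and Sirt5 (16.3% of all windows), and GGGCGG for 7 (35.7%). The 2 transcripts that moved together most widely, Nampt and Nmrk1, had no CACGTG in these windows, and Nampt had 5 and Nmrk1 0 matches to GGGCGG. Matches of different motifs did not overlap in the members' windows. A match is only a run of letters, and its absence says nothing about sites elsewhere. The upstream stretches of these 3 genes that overlap no annotated exon are shown to let the 3 starts be compared, 5′ to 3′ on the gene's strand, with CACGTG in capitals. They lie at chr10:63339051-63339285 (minus strand) for Sirt1, chr12:32820085-32820334 (plus strand) for Nampt and chr19:18631824-18631949 (plus strand) for Nmrk1.
Sirt1: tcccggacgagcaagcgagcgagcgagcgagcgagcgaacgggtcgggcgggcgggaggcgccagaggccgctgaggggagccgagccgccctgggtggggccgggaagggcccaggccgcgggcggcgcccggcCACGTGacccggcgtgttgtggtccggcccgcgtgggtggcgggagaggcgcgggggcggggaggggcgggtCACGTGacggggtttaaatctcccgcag
Nampt: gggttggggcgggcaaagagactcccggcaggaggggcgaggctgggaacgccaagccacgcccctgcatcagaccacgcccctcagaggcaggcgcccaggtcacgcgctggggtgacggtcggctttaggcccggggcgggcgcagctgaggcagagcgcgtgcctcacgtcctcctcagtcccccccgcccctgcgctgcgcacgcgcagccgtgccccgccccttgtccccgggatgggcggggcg
Nmrk1: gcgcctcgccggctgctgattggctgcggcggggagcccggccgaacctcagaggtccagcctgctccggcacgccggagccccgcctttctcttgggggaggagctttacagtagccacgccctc

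Other genes of NAD metabolism, from fixed lists, were examined in the same way. Among all tested genes, 0.95% passed for genotype by edgeR and 1.70% by DESeq2. An unadjusted p under 0.05 from edgeR was reached by 12.1%. Of the de novo pathway from tryptophan (Tdo2, Ido1, Ido2, Afmid, Kmo, Kynu, Haao, Acmsd and Qprt), 8 of 9 genes were tested and 0 passed for genotype by edgeR, 0 at an unadjusted p under 0.05 and 0 by DESeq2, with a median log2 fold change of 0.0059. Of 9 other genes of NAD synthesis and handling, 8 were tested and 0 passed by edgeR, with 2 at an unadjusted p under 0.05, 1 by DESeq2 and a median of -0.05. All 6 NAD consumers were tested, and 0 passed by either tool or at an unadjusted p under 0.05 (median -0.01). Of the 4 other sirtuins 0 passed by either tool, with 1 at an unadjusted p under 0.05 (median -0.03). The gene called by DESeq2 was Nadk, the cytosolic NAD kinase, which makes NADP and was picked out after its values were seen. Its log2 fold change was 0.13 (standard error 0.034), with an adjusted p of 0.0509 by edgeR and 0.0132 by DESeq2.

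Sampling time was called for 6 of the 8 tested de novo genes, 5 of the 8 other genes, 4 of the 6 consumers and 1 of the 4 other sirtuins, Sirt2 (adjusted p = 0.00948 from edgeR). Among all tested genes the share was 45.0%. Sirt1, Sirt3 and Sirt5 were called rhythmic in both genotypes. Of 8 alternative settings, the THRB KO call held in 4 for Sirt1, 6 for Sirt5 and 8 for Sirt3. Members and lists were chosen with earlier results of these data known, so setting these members against the other sirtuins is a description, not a test. Of the 4 other sirtuins edgeR called 0 in THRB WT and 0 in THRB KO, beside 33.0% and 28.9% of all genes. In each genotype 1 of these 4 had an unadjusted p under 0.05, and DESeq2 called 1. Acmsd, which diverts the pathway away from NAD, had the largest amplitude of the de novo genes, 0.94 in THRB WT against 1.08 in THRB KO livers, with peaks at ZT19.5 and ZT19.9. Tdo2, the first enzyme of the pathway in liver, had amplitudes of 0.34 and 0.33 and peaks at ZT8.62 and ZT10.4. Both were picked out after their values were seen. Ido1 had at most 2 counts in any library, and Nmrk2, the muscle paralog of Nmrk1, had 0 counts in all 36.

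**Figure D5:**
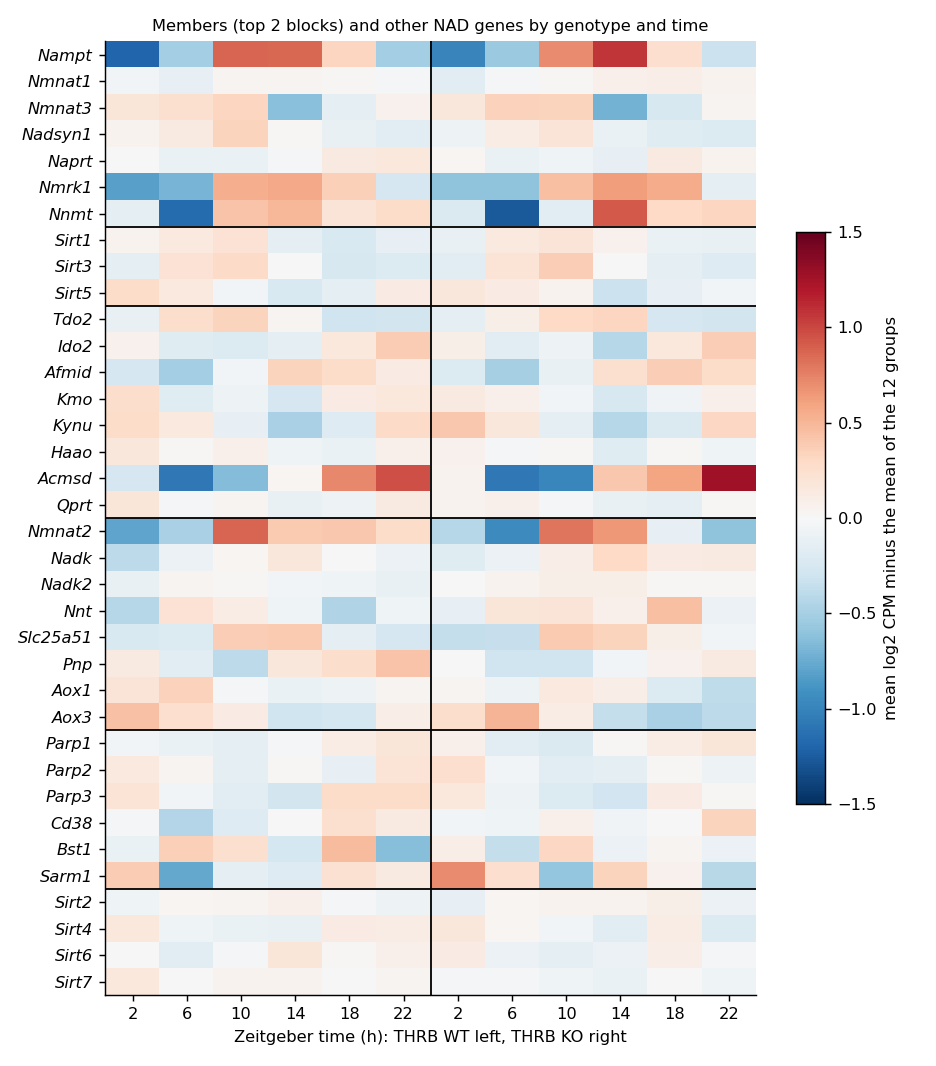
Mean log2 CPM of each gene in each of the 12 groups of genotype (THRB WT left, THRB KO right) and zeitgeber time, minus the mean of that gene over the groups (red higher, blue lower). The top blocks hold the 10 members and the lower blocks the tested genes of de novo synthesis, other NAD handling, NAD consumers and other sirtuins. The largest deviations from the gene's mean are those of Acmsd (1.27), Nnmt (-1.26), Nampt (-1.19), Nmnat2 (-0.95, at 3 to 50 counts per library) and Nmrk1 (-0.82), with Nmnat2 named after its values were seen.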

How the data were processed

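Poly-A liver RNA was sequenced as paired ends without strand information. The authors aligned reads with HISAT2 to GRCm38/mm10 and deposited raw counts per gene from featureCounts, without normalization. Versions, the annotation release and the strand setting are not given in the sources used here. The deposited table has 54532 genes and 36 libraries, and depth was 29063273 to 42530551 counts. Mice were grouped by the genotype and ZT in the labels.

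Genes with at least 100 counts over all libraries were tested (17994) with R 4.3.3 and edgeR 4.0.16, by quasi-likelihood F tests with TMM factors and Benjamini-Hochberg adjustment over all tested genes (threshold 0.05). Genotype was tested with sampling time as a factor, time with genotype, and rhythm with sine and cosine terms of a 24-h period within genotype or as an interaction. CPM were computed from these counts, per kilobase with the gene length in the deposited table. Amplitude and peak time came from a least-squares cosine on variance-stabilized counts (DESeq2 1.42.0), with differences tested from the fit's standard errors. Log2 CPM used a prior count of 2.

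The alternatives were DESeq2, its size factors, no count filter, leaving out each replicate letter, a replicate block, genotype alone, sampling time as a factor for rhythm, and log2 CPM for the cosine. Named likeness genes were the 5 highest correlations among genes of at least 1 CPM. The members and lists were chosen with earlier results of these data known. Procedures were tested on simulated counts. Reads shared by overlapping genes cannot be separated here.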

Additional observations from a re-analysis of the deposited data

How the results depend on the processing

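The count of genes called for genotype, 171, was 306 with DESeq2, 65 with genotype alone and 40 to 81 when the mice of 1 letter were left out, and 0 members were called in each case. Rhythm calls over all genes fell from 5936 to between 3109 and 4005 in THRB WT and from 5201 to between 2343 and 3192 in THRB KO when 1 letter was left out, with 5 to 8 of 8 member calls in THRB WT and 4 to 7 of 8 in THRB KO. Fewer mice enter by construction, and beyond that the cause was not tested. Members with a peak difference at an unadjusted p under 0.05 then numbered 0 to 1, since Sirt1 (2.68 to 3.62 h) passed without letter a only, not at 2.73 h without letter b or 2.68 h without letter c.

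Other values changed sign under some of the alternatives. Of 80 alternative log2 fold changes of the members 6 did, with ranges over the left-out letters of -0.0035 to 0.043 for Nmnat1, -0.093 to 0.044 for Nmnat3 (0.011 without letter c), -0.147 to 0.12 for Nnmt, which was at 0.0092 with genotype alone, and -0.021 to 0.058 for Sirt3. Without change of sign, Nadsyn1 ranged from -0.125 to -0.024 and Nmrk1 from 0.030 to 0.151, both nearest to 0 without letter a. Of 28 amplitude differences 4 did, with -0.092 to 0.041 for Nmrk1, -0.068 to 0.011 for Sirt1 and -0.065 to 0.038 for Sirt3 (0.013 without letter b). Of 28 peak differences 3 did, with -0.363 to 0.914 h for Nampt, -0.046 to 0.786 h for Nmnat3 and -0.018 to 1.39 h for Sirt3.

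The letters recur in all groups. Of 18 same-letter pairs of mice, 16, not all, correlated above 0.1 in their deviations from the group means (median 0.20, lowest -0.06). Of the 36 mice, 33 correlated best with their own letter among the 3 mice of the other genotype at their time. No label says what a letter stands for, and the main fits hold no term for it. A likeness of same-letter mice is thus left out of the standard errors and p-values of the main fits. With a replicate block of same-letter pairs within a sampling time, the genotype count was 387 and the interaction count 1. In either, 0 members were called. Under the block, 2 members had an unadjusted genotype p under 0.05 from edgeR, against 1 in the main fit. The same held for 2812 of all genes under the block and 2169 in the main fit. For time and rhythm the block was the letter alone, shared over all sampling times, so it does not address the pairs. The counts for time and rhythm then stayed within 1.5 times those of the main fit.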

Other observations

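The clock genes gave the reference for time of day in these livers. All 11 (Arntl, Clock, Npas2, Per1, Per2, Per3, Cry1, Cry2, Nr1d1, Nr1d2 and Dbp) were called for sampling time and for rhythm in both genotypes, and 0 for genotype by edgeR, 0 at an unadjusted p under 0.05 and 0 by DESeq2. Among all tested genes, 45.0% were called for time, 33.0% for rhythm in THRB WT and 28.9% for rhythm in THRB KO. Dbp, an output transcription factor of the clock, had an amplitude of 3.08 in THRB WT livers against 3.13 in THRB KO livers, and Arntl, which encodes BMAL1, of 1.90 against 1.99, in variance-stabilized units on a log2 scale. Nampt peaked between Per1 (ZT12.5 in THRB WT, ZT12.3 in THRB KO) and Per2 (ZT15.0 and ZT15.4).

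Markers of other liver cell types were examined beside these values, and 0 genes passed for genotype by edgeR or DESeq2 among those tested: 5 of 5 for endothelium, 5 of 5 for stellate cells, 4 of 5 for cholangiocytes, 4 of 4 for lymphocytes, 2 of 4 for neutrophils and 1 of 4 for adipocytes, of which 0, 0, 1, 1, 0 and 1 were at an unadjusted p under 0.05. Among all tested genes, 12.1% were at an unadjusted p under 0.05. DESeq2 gave no adjusted p for the lymphocyte markers Cd3e and Cd8a, so its result covers only the other lymphocyte markers. The fitted level was lower in THRB KO for 4 of 4 tested cholangiocyte and 2 of 2 tested neutrophil markers. It was lower for 2 of 5 endothelial, 2 of 5 stellate, 2 of 4 lymphocyte and 0 of 1 adipocyte markers. Nnt, the mitochondrial transhydrogenase that exchanges electrons between NADH and NADP, was at a mean of 1.14 CPM, 21 to 62 counts per library, and was picked out after its values were seen.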
